A study of Rattus norvegicus with 9 samples.

Results

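The genes described here are the 2 corticosteroid receptors and genes that handle or respond to glucocorticoid, in the cerebral cortex of rat pups on postnatal day 4. They were chosen by name: Nr3c1, Nr3c2, Sgk1, Fkbp5, Tsc22d3, Zbtb16, Errfi1, Hsd11b1 and Dusp1, with every probe set of the array whose annotation gives exactly 1 of these symbols. That rule found 11 probe sets for 8 of the 9 genes, among 31042 probe sets without controls. Zbtb16 had no such probe set and was not analysed here.

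Corticosterone, the glucocorticoid of rodents, crosses into cells and binds the glucocorticoid receptor, which is held in the cytoplasm by heat shock proteins and immunophilins. The bound receptor moves to the nucleus and switches genes on or off, among them genes such as Fkbp5 and Tsc22d3 that damp hormone or inflammatory signalling in turn. In the brain the mineralocorticoid receptor binds the same hormone with higher affinity, and in the first weeks after birth rodents pass through a period in which the adrenal responds little to stress.

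The study exposed Hsd:Sprague Dawley SD rats to 4-methylimidazole (4-MeI), a nitrogen heterocycle formed when foods brown, through the diet, starting 2 weeks before the F0 rats bred and continuing over further litters and generations. Pups of the F2b litters were sampled, 1 pup from each litter, and cortex was hybridised on 9 arrays: 3 for the control diet, 3 for 750 ppm and 3 for 2500 ppm of 4-MeI. All groups share the strain, the breeding schedule and the day of sampling. Intact cortex was used, so more or fewer cells of a type and more or less RNA per cell cannot be told apart, and the labels give neither the sex of the pups nor which dams had seizures.

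The values are log2 robust multi-array average (RMA) intensities, on which a difference of 1 is a doubling. The median of an array lay between 7.66 and 7.70. Control replicate 3 had the lowest correlation with its closest other array, 0.995, and 750 ppm replicate 3 correlated best with an array of the 2500 ppm group (0.996). Of 11 cortical excitatory neuron markers with a probe set, 10 were above the intensity filter, as were 13 of 14 striatal markers. The filter left out the 30% of probe sets with the lowest mean over the 9 arrays, those under 6.35, and 9 of the 11 probe sets of the receptor and response genes passed it.

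None of these genes passed the test in any comparison. Sgk1, which encodes a kinase that glucocorticoid induces, stood highest at 2500 ppm, 1.37-fold above control, and missed the threshold after adjustment. At 2500 ppm against control, 0 of 9 probe sets had an adjusted p under 0.05 in limma and 1 had an unadjusted p under 0.05, against 0.686% and 16.0% of the 21729 probe sets tested. The arrays of 2 of the 9 did not overlap between 2500 ppm and control, Sgk1 and Nr3c2, both higher at 2500 ppm, which 23.3% of all probe sets tested did, 9.87% with 2500 ppm higher, so these counts lie near the background. The median log2 difference of the 9 was 0.018, against 0.0070 for all probe sets, and their median absolute difference was 0.044, against 0.091.

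At 750 ppm against control, 0 of 9 passed after adjustment and 0 at an unadjusted p under 0.05 in limma, where 0.00920% and 10.1% of all probe sets did. No member separated the arrays of 750 ppm and control, which 14.2% of all probe sets did (7.61% higher and 6.58% lower at 750 ppm). Between 2500 ppm and 750 ppm, 0 of 9 passed after adjustment, against 0.322% of all probe sets. An unadjusted limma p under 0.05 was found for 3, Sgk1, Nr3c1 and Errfi1, against 12.6% of all probe sets. That share was 5.25% for higher at 2500 ppm, the direction of Sgk1 and Nr3c1, and 7.33% for lower, the direction of Errfi1. Sgk1 and Nr3c1 separated those arrays, both higher at 2500 ppm, as 17.4% of all probe sets did in either direction and 7.88% in that one. The comparisons share arrays: the controls serve both concentrations, and the 2500 ppm arrays serve 2 of the 3 comparisons.

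**Figure D1:**
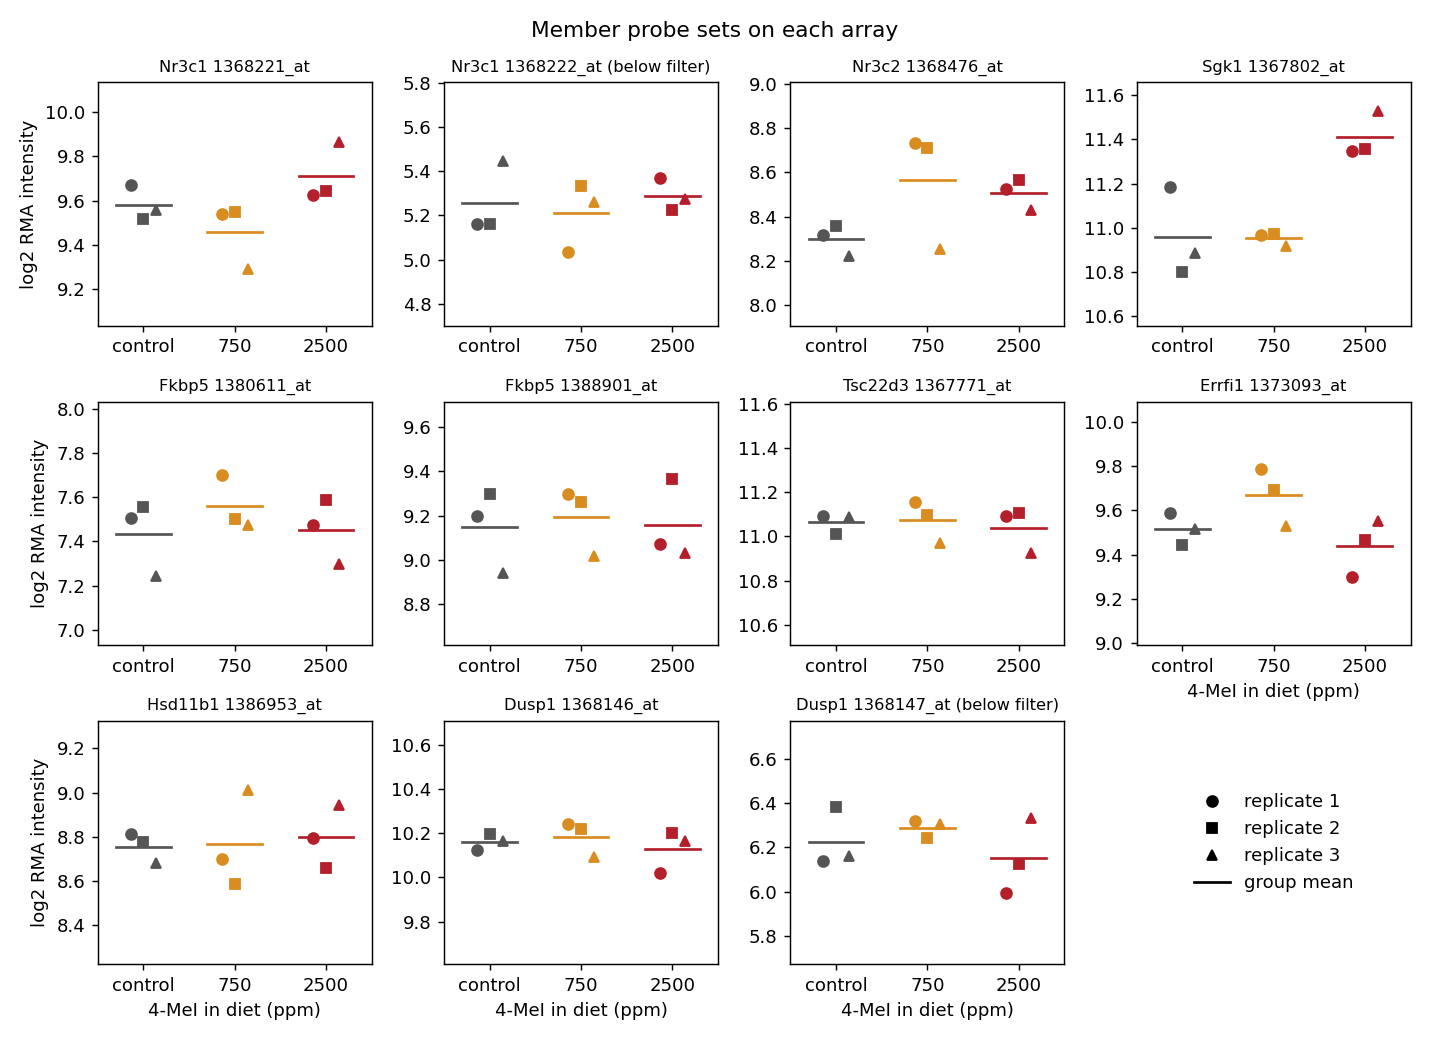
Log2 RMA intensity of the 11 probe sets on each array, by dietary concentration of 4-MeI in ppm; symbols mark the replicate number, bars the group mean, and every panel spans the same range of log2 units. The 3 Sgk1 values at 2500 ppm lie between 11.35 and 11.53, above all other arrays, and the other panels show groups that overlap or separate narrowly.

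Nr3c1 encodes the glucocorticoid receptor and lies on chromosome 18 of the GRCr8 assembly from 31522783 to 31644508. Its probe set 1368221_at read 9.67, 9.52 and 9.56 on the control arrays, 9.54, 9.55 and 9.29 at 750 ppm, and 9.63, 9.65 and 9.86 at 2500 ppm. The highest array was 2500 ppm replicate 3 and the lowest 750 ppm replicate 3, with the 7 others inside a narrow band. Means were 9.58 (SD 0.08), 9.46 (SD 0.14) and 9.71 (SD 0.13), n = 3 each, in rising order of concentration. The log2 difference was 0.13 between 2500 ppm and control (SE 0.09, 95% interval -0.08 to 0.34, limma adjusted p = 0.527) and -0.12 between 750 ppm and control (SE 0.09, -0.33 to 0.09, limma adjusted p = 0.661). Between 2500 ppm and 750 ppm it was 0.25 (SE 0.09, 0.04 to 0.46, limma adjusted p = 0.328), and the lowest 2500 ppm array exceeded the highest 750 ppm array.

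The other Nr3c1 probe set, 1368222_at, was below the intensity filter, between 5.04 and 5.44 on all arrays. Its group means were 5.25 (SD 0.16) in controls, 5.21 (SD 0.15) at 750 ppm and 5.29 (SD 0.07) at 2500 ppm, and all groups overlapped. Its difference of 0.034 between 2500 ppm and control is a value near background and says little of the transcript.

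Nr3c2 encodes the mineralocorticoid receptor, on chromosome 19 from 47619853 to 47964089. It read 8.32, 8.36 and 8.22 in controls, 8.73, 8.71 and 8.26 at 750 ppm, and 8.52, 8.56 and 8.43 at 2500 ppm. All 2500 ppm arrays were above all controls, while the 750 ppm arrays were divided, with replicates 1 and 2 the highest of all 9 and replicate 3 among the controls. The difference from control was 0.21 at 2500 ppm (SE 0.12, 95% interval -0.06 to 0.48, limma adjusted p = 0.430) and 0.27 at 750 ppm (SE 0.12, limma adjusted p = 0.494). Without 750 ppm replicate 3 the 750 ppm difference was 0.42, with a limma adjusted p of 0.0619. The 2500 ppm and 750 ppm groups differed by -0.06 (95% interval -0.33 to 0.21), and by -0.22 without that array.

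Hsd11b1 encodes the 11β-hydroxysteroid dehydrogenase that regenerates active glucocorticoid from its inert keto form inside cells, and lies on chromosome 13 from 107277526 to 107327462. Control arrays read 8.81, 8.78 and 8.68, the 750 ppm arrays 8.70, 8.59 and 9.01, and the 2500 ppm arrays 8.79, 8.66 and 8.95. The groups overlapped throughout, and both the highest and the lowest of the 9 values were 750 ppm arrays. The log2 difference from control was 0.04 at 2500 ppm (SE 0.11, 95% interval -0.21 to 0.30, limma adjusted p = 0.878) and 0.01 at 750 ppm (SE 0.11, -0.24 to 0.27, limma adjusted p = 0.980).

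The array 750 ppm replicate 3 thus had the lowest Nr3c1 (9.29), the lowest Nr3c2 of its group (8.26) and the highest Hsd11b1 (9.01). On the same array the mean of 13 striatal markers, centred over all arrays, was -0.84, against 0.57 and 0.51 on the other 750 ppm arrays. The hippocampal, astrocyte and microglial means were also the lowest of the 750 ppm group on this array. The lowest striatal mean of all was on 2500 ppm replicate 1 (-0.98), which read 9.63 for Nr3c1, 8.52 for Nr3c2 and 8.79 for Hsd11b1. The part of tissue content in the receptor and enzyme values of these arrays was not tested.

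Fkbp5 encodes an immunophilin that binds the receptor complex and lowers its affinity for hormone, and glucocorticoid induces it in many tissues. The gene lies on chromosome 20 from 6458931 to 6577227 and had 2 probe sets above the filter. Probe set 1388901_at read 9.20, 9.30 and 8.94 in controls, 9.30, 9.26 and 9.02 at 750 ppm, and 9.07, 9.37 and 9.03 at 2500 ppm. Probe set 1380611_at read 7.50, 7.56 and 7.24 in controls, 7.70, 7.50 and 7.47 at 750 ppm, and 7.47, 7.59 and 7.30 at 2500 ppm. On both probe sets replicate 3 was the lowest array of every group, control replicate 3 was the lowest of all, and the groups overlapped.

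Against control, Fkbp5 differed at 2500 ppm by 0.01 on 1388901_at (SE 0.12, 95% interval -0.27 to 0.29, limma adjusted p = 0.976) and by 0.02 on 1380611_at (SE 0.11, -0.23 to 0.26, limma adjusted p = 0.950). At 750 ppm the differences were 0.05 (limma adjusted p = 0.916) and 0.12 (limma adjusted p = 0.702). The pooled SD within groups was 0.17 on 1388901_at, larger than in 82.5% of the probe sets tested. Control replicate 3, where Fkbp5 was lowest, also had the lowest mean of 16 meningeal markers (-1.11, against -0.17 and -0.63 in the other controls) and of 15 endothelial markers (-0.49, against -0.07 and -0.19). The pericyte, microglial, astrocyte and oligodendrocyte lists also had their lowest control mean on that array. On 2500 ppm replicate 3, where Fkbp5 was lowest of its group, the meningeal (0.37) and endothelial (0.20) means were the highest of the group. On 750 ppm replicate 3 the meningeal mean (0.31) was lowest of its group and the endothelial mean (0.10) between the others. The part of these lists in the Fkbp5 values was not tested.

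Sgk1 encodes serum and glucocorticoid regulated kinase, which acts on ion channels and transporters and is a classical target of both receptors. Its gene lies on chromosome 1 of GRCr8 from 24799391 to 24916886, and 1 probe set, 1367802_at, measures it. The controls read 11.19, 10.80 and 10.89, the 750 ppm arrays 10.97, 10.97 and 10.92, and the 2500 ppm arrays 11.35, 11.36 and 11.53. Every 2500 ppm array was above every other array, and the 750 ppm arrays lay close together inside the range of the controls. Group means were 10.96 (SD 0.20), 10.95 (SD 0.03) and 11.41 (SD 0.10), n = 3 each, in rising order of concentration.

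The Sgk1 difference between 2500 ppm and control was 0.45 on the log2 scale (SE 0.10, 95% interval 0.23 to 0.68), with an unadjusted p of 0.00124 and a limma adjusted p of 0.0797. Between 2500 ppm and 750 ppm it was 0.46 (SE 0.10, 0.23 to 0.68, limma adjusted p = 0.112), and between 750 ppm and control -0.0030 (SE 0.10, -0.23 to 0.22, limma adjusted p = 0.995). The adjusted p of the first comparison lay between 0.0301 and 0.225 over 16 alternatives. Control replicate 1 decided the side of the threshold: without it the difference was 0.57 with a limma adjusted p of 0.0301. With array weights the difference was 0.29, with a limma adjusted p of 0.0895.

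**Figure D2:**
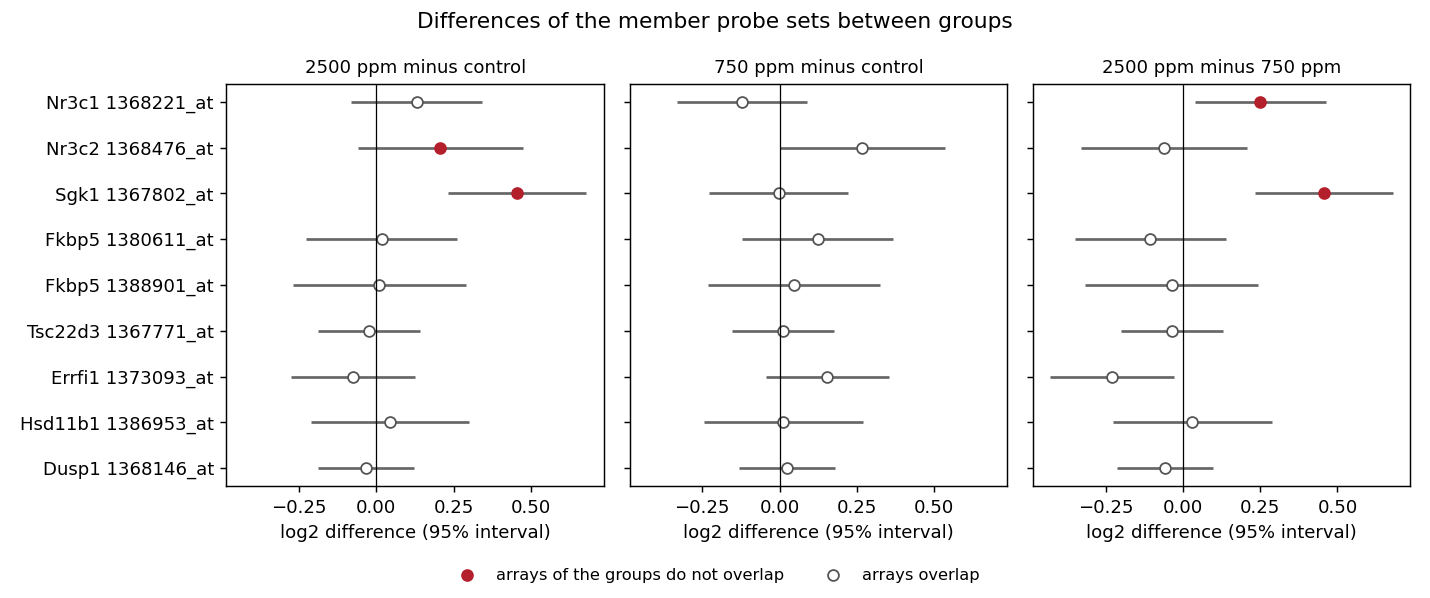
Log2 difference of the 9 probe sets above the filter in each comparison, with 95% intervals from the model across all probe sets; filled points mark members whose arrays do not overlap between the groups. Sgk1 lies near 0.45 in both comparisons with the 2500 ppm group and at -0.0030 between 750 ppm and control.

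Markers of other tissues differed between the same groups as Sgk1. The mean of 8 choroid plexus and ependymal markers above the filter (of 12 listed), centred over the arrays, was 1.42, 1.27 and 0.23 on the 2500 ppm arrays, against -0.38, -0.26 and -0.45 at 750 ppm and -0.55, -0.71 and -0.57 in controls. All 8 were higher at 2500 ppm than in controls, with 1, Ttr, past the threshold and a median of 0.65. Within the 2500 ppm group Sgk1 was highest on replicate 3, the array with the lowest choroid plexus mean of the 3. It is the order of only 3 arrays, and its cause was not tested. The 13 striatal markers averaged -0.98, -0.09 and -0.61 at 2500 ppm, against 0.70, 0.29 and 0.45 in controls, and all 13 were lower, with 2 past the threshold.

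Meningeal and endothelial markers were higher than in controls at both concentrations. The mean of the 16 meningeal markers was 0.0085, 0.24 and 0.37 at 2500 ppm, against -0.17, -0.63 and -1.11 in controls. At 750 ppm, where Sgk1 lay at control level, it was 0.58, 0.41 and 0.31. The 15 endothelial markers gave 0.0067, 0.12 and 0.20 at 2500 ppm, 0.23, 0.08 and 0.10 at 750 ppm, and -0.07, -0.19 and -0.49 in controls. Between 2500 ppm and 750 ppm, 8 of 8 oligodendrocyte and 7 of 10 cortical excitatory markers were higher at 2500 ppm (medians 0.18 and 0.17). Against control, 6 of 8 and 5 of 10 were higher at 2500 ppm (medians 0.07 and 0.03). The part of choroid plexus, striatal, meningeal, endothelial, oligodendrocyte and cortical neuron content in the Sgk1 difference was not tested.

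**Figure D3:**
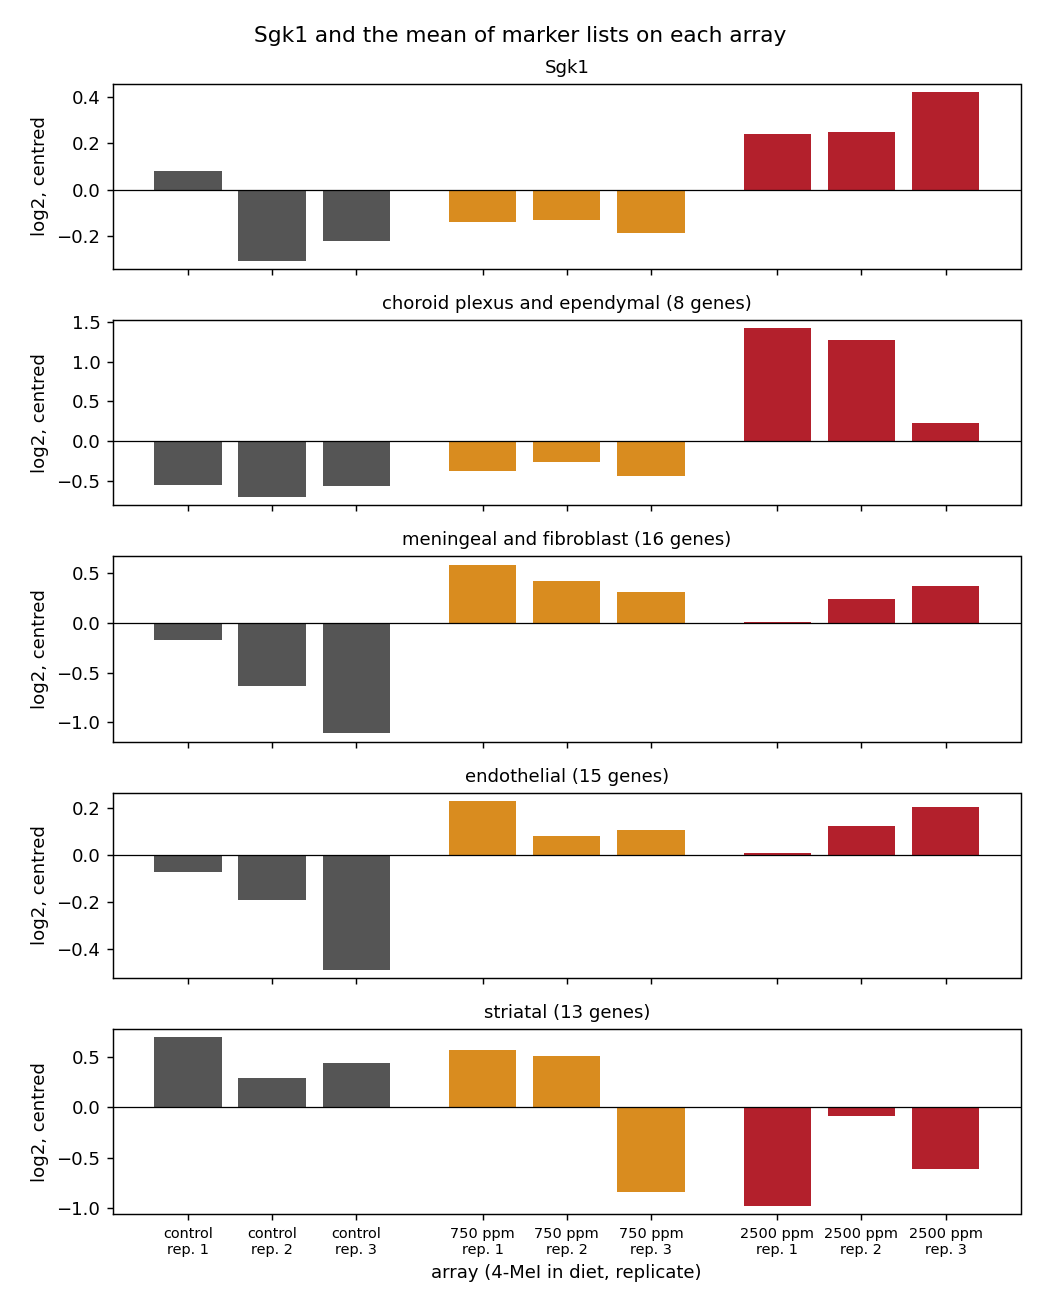
Sgk1 and the means of 4 marker lists on each array, as log2 values centred on the mean of all 9 arrays; bars start at 0 and each panel has its own scale. Sgk1 and the choroid plexus list are both above 0 on the 3 arrays of the 2500 ppm group, with their highest arrays differing, while the meningeal and endothelial lists are also above 0 at 750 ppm.

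Among 11605 other genes, those whose centred values over the 9 arrays lay closest to Sgk1 were Nrgn (root mean square difference 0.085), which encodes the calmodulin-binding neurogranin, Pdzrn3 (0.091) and Arhgdib (0.093), where the median gene was at 0.26. Nrgn read 11.65, 11.49 and 11.65 at 2500 ppm, against 11.29, 11.02 and 11.24 in controls. It was chosen for closeness to Sgk1 on these arrays, so its separation of these groups is not a second finding. For Nr3c2 the closest were Rnaset2 (0.058), Etfb (0.061) and Map3k20 (0.061), with a median of 0.20. For Fkbp5 on 1388901_at they were Ccdc30 (0.058), Nosip (0.062) and Kiaa0232 (0.067), with a median of 0.17. The search is over many genes and few arrays, and it describes these arrays only.

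The sequence upstream of Sgk1 is shown because it is the member that separated the 2500 ppm arrays from all others, and that of Dusp1 as a response gene that did not. RefSeq windows on GRCr8 were matched for 6 of the 9 genes, 11 windows in all, and each line gives the 250 bases before an annotated start, 5′ to 3′. The Sgk1 windows 1, 2 and 3 lie at chr1:24807232-24807481, chr1:24805571-24805820 and chr1:24804832-24805081 on the minus strand, and the Dusp1 window at chr10:17184603-17184852 on the plus strand. Capitals mark matches to the motifs searched, on either strand.
Sgk1 window 1: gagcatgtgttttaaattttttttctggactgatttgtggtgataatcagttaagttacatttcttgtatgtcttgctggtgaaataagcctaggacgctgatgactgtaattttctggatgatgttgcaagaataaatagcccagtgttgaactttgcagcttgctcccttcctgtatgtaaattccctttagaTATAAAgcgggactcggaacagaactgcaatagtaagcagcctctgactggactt
Sgk1 window 2: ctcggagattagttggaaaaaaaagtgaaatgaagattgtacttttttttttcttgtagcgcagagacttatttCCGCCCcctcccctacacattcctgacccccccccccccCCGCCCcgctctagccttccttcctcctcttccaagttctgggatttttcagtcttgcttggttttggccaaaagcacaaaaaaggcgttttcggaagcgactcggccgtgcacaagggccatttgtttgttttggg
Sgk1 window 3: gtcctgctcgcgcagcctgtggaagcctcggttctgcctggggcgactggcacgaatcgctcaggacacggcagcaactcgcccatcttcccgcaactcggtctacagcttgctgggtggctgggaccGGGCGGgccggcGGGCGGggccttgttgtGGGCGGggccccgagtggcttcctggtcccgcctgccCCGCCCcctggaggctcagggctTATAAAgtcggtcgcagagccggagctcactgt
Dusp1: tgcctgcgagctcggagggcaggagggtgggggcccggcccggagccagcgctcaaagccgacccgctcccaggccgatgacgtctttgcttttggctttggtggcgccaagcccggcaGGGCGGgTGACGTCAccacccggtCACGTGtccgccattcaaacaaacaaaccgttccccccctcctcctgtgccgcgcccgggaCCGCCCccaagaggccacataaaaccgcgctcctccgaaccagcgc

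The glucocorticoid response element was searched on both strands in 3 forms. The strict form is AGAACA and TGTTCT with 3 bases between them, the relaxed form GNACA and TGTNC with 3 bases between them, and the shortest TGTTCT alone. A strict match is also a match of the other forms. None of the 11 windows held any of them, which says only that these letters are not in these bases. Of 33469 rat windows of the same length, 0.012%, 0.373% and 17.5% held them. The cyclic AMP response element TGACGTCA was found in the Dusp1 window, 124 to 117 bases before the start, as in 1.59% of all windows, and the E-box CACGTG 107 to 102 bases before it (5.59% of all windows). The GC box GGGCGG was in 9 of the 11 windows, against 30.5% of all, and TATAAA in 4 of 11, against 12.9%. The 11 windows come from 6 genes, and windows of the same gene are not independent. Their G and C content ran from 39.2% to 78.4%, and the shares were not matched for it.

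The Sgk1 windows differ in composition. Window 1 is 39.2% G and C with a TATAAA 55 to 50 bases before the start and no GC box, window 2 is 49.6% with 2 GC boxes, and window 3 is 69.6% with 4 GC boxes and a TATAAA 33 to 28 bases before the start. The median of all windows was 51.2%. One probe set cannot tell which start the measured transcripts used.

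Tsc22d3 encodes GILZ, a leucine zipper protein that carries out part of the anti-inflammatory action of glucocorticoid, on chromosome X from 109006410 to 109066389. The values were 11.09, 11.01 and 11.09 in controls, 11.16, 11.10 and 10.97 at 750 ppm, and 11.09, 11.10 and 10.92 at 2500 ppm. The groups overlapped almost completely, and the range over all arrays was 0.23. Against control the difference was -0.02 at 2500 ppm (SE 0.07, 95% interval -0.19 to 0.14, limma adjusted p = 0.901) and 0.01 at 750 ppm (SE 0.07, -0.15 to 0.18, limma adjusted p = 0.968). A change of the size seen for Sgk1 at 2500 ppm lies outside these intervals.

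Errfi1, an inhibitor of the epidermal growth factor receptor that stress and steroid hormones induce, lies on chromosome 5 from 166606841 to 166620124. It read 9.59, 9.44 and 9.52 in controls, 9.79, 9.69 and 9.53 at 750 ppm, and 9.30, 9.47 and 9.55 at 2500 ppm. The 750 ppm group held the 2 highest arrays and the 2500 ppm group the lowest, but 750 ppm replicate 3 fell within the range of both other groups. The log2 difference was -0.23 between 2500 ppm and 750 ppm (SE 0.09, 95% interval -0.43 to -0.03, limma adjusted p = 0.345). Against control it was -0.07 at 2500 ppm (limma adjusted p = 0.715) and 0.15 at 750 ppm (limma adjusted p = 0.575).

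Dusp1, a phosphatase that switches off MAP kinases and is induced by both glucocorticoid and neuronal activity, lies on chromosome 10 from 17184853 to 17187646. Probe set 1368146_at read 10.12, 10.20 and 10.16 in controls, 10.24, 10.22 and 10.09 at 750 ppm, and 10.02, 10.20 and 10.16 at 2500 ppm. The groups overlapped, with the lowest value on 2500 ppm replicate 1. The difference from control was -0.03 at 2500 ppm (SE 0.07, 95% interval -0.19 to 0.12, limma adjusted p = 0.842) and 0.02 at 750 ppm (SE 0.07, -0.13 to 0.18, limma adjusted p = 0.926). Its pooled SD of 0.08 was smaller than that of most probe sets tested, of which 24.8% were lower still.

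The other Dusp1 probe set, 1368147_at, was below the filter, with a range of 0.39 over all arrays. Group means were 6.23 (SD 0.13) in controls, 6.29 (SD 0.04) at 750 ppm and 6.15 (SD 0.17) at 2500 ppm. Its highest array was control replicate 2 and its lowest 2500 ppm replicate 1, which was also the lowest on 1368146_at.

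Further genes of the pathway were read from 4 lists, with 1 probe set per gene, the one with the highest mean. Receptor partners and coregulators had 13 of 16 genes tested, steroid handling 2 of 9, the stress peptide axis 3 of 8 and other glucocorticoid-inducible genes 28 of 34. At 2500 ppm against control, 1 gene of the first list fell and 1 of the last rose, and 0 of the other lists passed, where 0.405% of all probe sets tested fell and 0.281% rose. At 750 ppm against control and between the 2 concentrations, 0 genes of the 4 lists passed in limma, with the unadjusted p under 0.05 for 1 receptor partner and 7 inducible genes at 750 ppm against control, and for 1 receptor partner, 1 steroid handling gene and 4 inducible genes between the concentrations. Over all probe sets tested those shares were 10.1% and 12.6%.

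Nrip1 encodes a corepressor (RIP140) that binds hormone-activated nuclear receptors. It read 10.42, 10.66 and 10.70 at 2500 ppm, against 11.05, 11.11 and 11.35 in controls, and the 750 ppm arrays were at 11.14, 11.09 and 11.19. Every 2500 ppm array was below every other array. Nrip1 fell by 0.58 at 2500 ppm against control (SE 0.10, limma adjusted p = 0.0386), and between 2500 ppm and 750 ppm the difference was -0.55 (limma adjusted p = 0.0639). It no longer passed when control replicate 2 (limma adjusted p = 0.106), control replicate 3 (0.0850) or 750 ppm replicate 1 (0.0527) was left out. Leaving out any 1 of the 2500 ppm arrays also ended the call (0.111, 0.108 and 0.0826), and Nrip1 passed under 9 of 16 alternatives. All 13 striatal markers were also lower at 2500 ppm than in controls. At 750 ppm, where Nrip1 was at -0.03 from control, 11 of the 13 were lower. The part of striatal content in the Nrip1 values was not tested.

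The 13 receptor partners and coregulators had a median log2 difference of 0.0029 at 2500 ppm, against 0.0070 for all probe sets tested, with 8 higher and 5 lower. Ep300, a histone acetyltransferase and coactivator, was at -0.24 (SE 0.11, limma adjusted p = 0.342). At 750 ppm against control the median was -0.02. Ncoa1, the steroid receptor coactivator SRC-1, was at -0.21 there (SE 0.06, limma adjusted p = 0.305), and the mediator subunit gene Med1 at -0.11 (limma adjusted p = 0.580). Ncoa2, a related coactivator, was 0.20 higher at 2500 ppm than at 750 ppm (limma adjusted p = 0.416).

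Sult1a1, a phenol sulfotransferase that glucocorticoid induces in rat liver, read 7.96, 8.33 and 8.03 at 2500 ppm, against 7.22, 7.03 and 6.43 in controls, with 8.44, 8.30 and 8.20 at 750 ppm. All arrays of both exposed groups were above all controls. It rose by 1.22 at 2500 ppm (SE 0.19, limma adjusted p = 0.0295) and was 1.42 higher at 750 ppm (SE 0.19, limma adjusted p = 0.145). Leaving out control replicate 2 (adjusted p = 0.0776) or any 1 of the 2500 ppm arrays (0.0830, 0.108 and 0.0853) ended the 2500 ppm call. At 750 ppm it passed without control replicate 1 (0.0294) or 750 ppm replicate 3 (0.0445). On the same arrays the meningeal list had its lowest value, -1.11, on control replicate 3, where Sult1a1 was also lowest. The endothelial, pericyte, microglial and astrocyte lists were lowest on that array too, and the part of these lists was not tested.

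The 28 other inducible genes had a median of 0.05 at 2500 ppm against control, with 18 higher and 10 lower. The unadjusted limma p was under 0.05 for 7 of the 28 that were higher, a larger share than the 6.89% of all probe sets. It was under 0.05 for 2 that were lower, a smaller share than 9.12%. The list was chosen with earlier results of these data known, and the difference in shares was not tested. Anxa1, the anti-inflammatory annexin A1, was 0.86 higher at 2500 ppm (SE 0.21, limma adjusted p = 0.0966), from arrays at 8.55, 8.55 and 8.65 against controls at 8.21, 7.81 and 7.17, and passed without control replicate 1 (1.10, adjusted p = 0.0301). The spread lay in the controls, in the order of the meningeal list (-0.17, -0.63 and -1.11). The endothelial list ran in the same order (-0.07, -0.19 and -0.49), as did the pericyte, microglial and astrocyte lists. The part of these lists in the Anxa1 values was not tested.

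At 750 ppm against control the same 28 genes had a median of -0.0065. The unadjusted limma p was under 0.05 for 6 higher, a larger share than the 5.77% of all probe sets. It was under 0.05 for 1 lower, a smaller share than 4.37%, and these differences in shares were not tested. Cdkn1c, a cell cycle inhibitor, was 0.83 higher (SE 0.23, limma adjusted p = 0.260), with 10.62, 10.60 and 10.44 against 10.35, 9.58 and 9.22 in controls. Without control replicate 1 it was 1.15 higher (adjusted p = 0.0294). Its controls, too, ran in the order of the meningeal, endothelial, pericyte, microglial and astrocyte lists. The meningeal list was higher at 750 ppm than in controls for 16 of 16 genes. The part of these lists in the Cdkn1c values was not tested.

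Between 2500 ppm and 750 ppm the inducible genes had a median of 0.04. Klf9, a zinc finger gene that corticosterone and thyroid hormone both induce in neurons, was 0.58 higher at 2500 ppm than at 750 ppm (SE 0.14, limma adjusted p = 0.137), with 10.86, 10.93 and 11.06 at 2500 ppm, against 10.33, 10.51 and 10.29 at 750 ppm. The controls read 11.10, 10.53 and 10.65, all above the 750 ppm arrays and overlapping the 2500 ppm arrays. Bcl6, a transcriptional repressor, was at -0.97 (SE 0.27, limma adjusted p = 0.203). It read 8.83, 9.03 and 9.48 at 2500 ppm, against 10.43, 10.26 and 9.54 at 750 ppm. Its controls read 9.71, 9.63 and 10.34, all above the 2500 ppm arrays. Without 750 ppm replicate 3 Bcl6 passed (-1.23, limma adjusted p = 0.0300). The striatal mean was -0.84 on that array, against 0.57 and 0.51 on the other 750 ppm arrays. On the 2500 ppm arrays it was -0.98, -0.09 and -0.61. The part of striatal content in the Bcl6 values was not tested.

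In the stress peptide axis, Crh, the hypothalamic releasing hormone that cortical interneurons also make, was 0.47 higher at 2500 ppm than in controls (SE 0.18, limma adjusted p = 0.250). The 2500 ppm arrays read 8.92, 8.70 and 8.93, against 8.50, 8.58 and 8.05 in controls, and did not overlap them. At 750 ppm the values were 8.29, 8.33 and 8.91, a difference of 0.14 from control (limma adjusted p = 0.814), with replicate 3 at the level of the 2500 ppm arrays. Pomc, the precursor of corticotropin, was at 0.10 at 2500 ppm and -0.06 at 750 ppm against control (limma adjusted p = 0.594 and 0.817).

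Of the steroid handling genes, Hsd11b2, the dehydrogenase that inactivates glucocorticoid, was at 0.13 between 2500 ppm and control (SE 0.08, limma adjusted p = 0.420) and at 0.22 between 2500 ppm and 750 ppm (SE 0.08, limma adjusted p = 0.283). Its lowest 2500 ppm array, 7.52, was above the highest of the other groups, 7.50. Abcb1a, the blood-brain barrier exporter that carries glucocorticoids and is also on the endothelial list, was at 0.28 at 2500 ppm and 0.47 at 750 ppm against control (limma adjusted p = 0.596 and 0.538). Control replicate 3 was at 7.02, against 7.94 and 8.01 on the other controls.

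**Figure D4:**
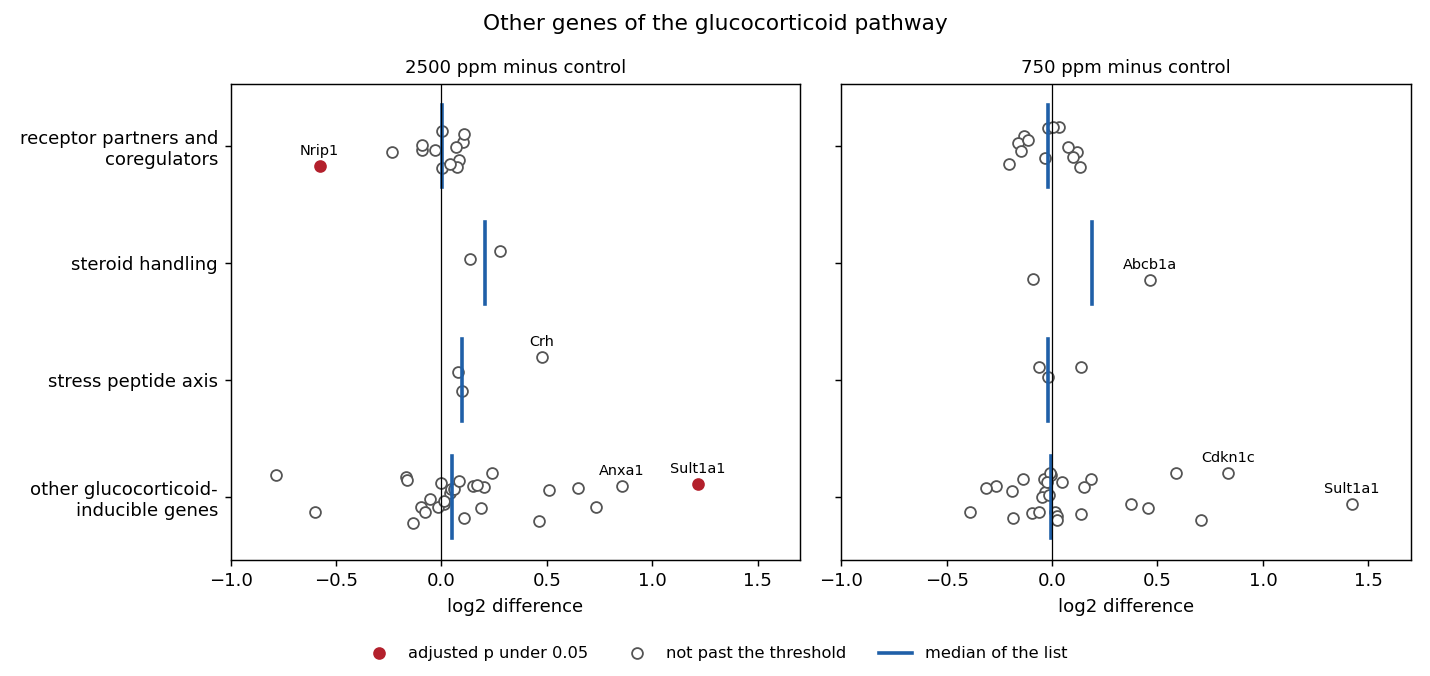
Log2 difference from control of every tested gene of the 4 pathway lists at 2500 ppm (left) and 750 ppm (right); filled points passed an adjusted p of 0.05, vertical bars are list medians, and vertical scatter within a list has no meaning. Nrip1 (-0.58) and Sult1a1 (1.22) are the filled points at 2500 ppm, and no point is filled at 750 ppm. Open points at 2500 ppm reach 0.86 (Anxa1) and -0.78 (Bcl6).

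The Sgk1 difference kept its sign under all 16 alternatives, between 0.29 and 0.57, and passed the threshold under 1 of them.

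**Figure D5:**
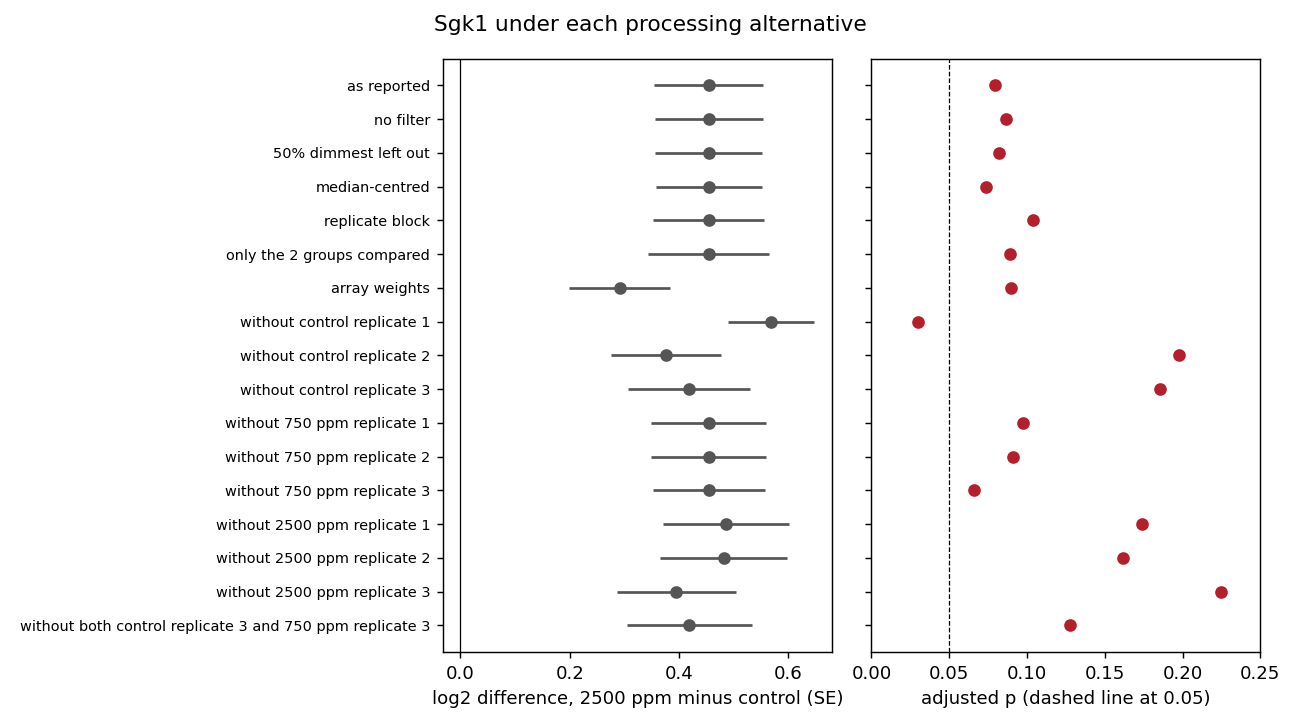
Sgk1 at 2500 ppm minus control under each processing alternative: log2 difference with its SE on the left and adjusted p on the right, where the dashed line is 0.05. Leaving out control replicate 1 gives the largest difference, 0.57, and the one adjusted p left of the line, 0.0301.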

How the data were processed

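Total RNA of 9 cortices was amplified by in vitro transcription and hybridised to Affymetrix rat arrays, per the labels' protocols. The deposited values are log2 intensities that the authors made with affy and RMA, per the submitters' processing notes; versions and settings are not given in the sources used here. RMA as a method gives no detection call, compresses differences near background and, by its usual quantile step, hides a change in total RNA. The number of arrays limits the precision.

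From the 31099 deposited probe sets, 57 controls and the 30% with the lowest mean were left out, and 21729 were fitted in limma 3.58.1 (R 4.3.3), with 1 mean per group over all 9 arrays, empirical Bayes variances and two-sided Benjamini-Hochberg adjusted p-values over all probe sets tested, threshold 0.05. The model was run on simulated data with planted changes and noise drawn independently for each probe set. Those data hold no shift that many probe sets share on an array, so the run does not test the calls against such shifts. An exact permutation of 3 arrays against 3 cannot go below p = 0.1. Symbols were those of the platform annotation, and Entrez identifiers were matched to RefSeq (GRCr8), which also gave gene positions and upstream windows. Positions are those of genes, not probes. Pups came from separate litters. The genes and lists were chosen with earlier results of these data known, and the motifs after the values were seen. All member probe sets are named, and of the pathway lists the genes past the threshold or otherwise the 2 with the smallest p in each comparison. Ep300 and Anxa1, next in p in lists that had a gene past the threshold at 2500 ppm, were added after their values were seen. Nrgn and the other genes set beside Sgk1, Nr3c2 and Fkbp5 had the smallest root mean square difference of centred values, for the 3 probe sets with the largest SD. The lists of pericyte, microglial, astrocyte and oligodendrocyte markers had medians of 0.15, 0.16, -0.01 and 0.07 at 2500 ppm and 0.07, 0.25, 0.08 and -0.13 at 750 ppm against control, and those of hippocampal, cortical excitatory, meningeal and endothelial markers -0.01, 0.03, 0.86 and 0.34 at 2500 ppm. Alternatives were other filters, median-centring, a replicate block, fits of only the groups compared, array weights and leaving out arrays.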

Additional observations from a re-analysis of the deposited data

How the results depend on the processing

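The number of probe sets called over the whole array depended on the arrays fitted, while the number of receptor and response probe sets called remained 0 in all comparisons except without control replicate 1, where it was 1 (Sgk1) at 2500 ppm against control, so leaving out 1 array gave 0 to 1. For all probe sets, leaving out 1 array gave 9 to 447 calls at 2500 ppm against control (149 with all arrays), 0 to 49 at 750 ppm against control (2 with all arrays) and 13 to 728 between 2500 ppm and 750 ppm (70 with all arrays). Fits of only the groups compared gave 481, 1 and 14 in the same order, array weights 1495, 340 and 721, and a fit without replicate 3 of both the control and the 750 ppm group, an alternative added with the data in view, 250, 71 and 1137. With the replicate number as a block the count between 2500 ppm and 750 ppm was 36, the others were 122 and 2, and Sgk1 had an adjusted p of 0.104 at 2500 ppm against control. Correlations of deviations between arrays of the same number lay between -0.21 and 0.31. Arrays of different number were not compared in this way, so these values do not show whether the number pairs the samples. The cause of the shifts in the counts was not tested.

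Of 27 differences of receptor and response probe sets, 13 kept their sign under all alternatives, and the other 14 had values of at most 0.06 in size and changed sign under at least 1. With array weights the sign turned at 2500 ppm against control for Fkbp5 (-0.047 on 1380611_at, -0.029 on 1388901_at), Hsd11b1 (-0.0067) and Dusp1 (0.0052), and at 750 ppm against control for Hsd11b1 (-0.12) and Crh (-0.10). Without both arrays named above it turned at 2500 ppm against control for Fkbp5 (-0.079 on 1380611_at, -0.092 on 1388901_at) and Abcb1a (-0.038), and at 750 ppm against control for Hsd11b1 (-0.15) and Crh (-0.23). Leaving out 1 array also turned signs, and the ranges that follow take in each array in turn and the pair. For 2500 ppm minus control these ranges were Fkbp5 1380611_at -0.079 to 0.10, Fkbp5 1388901_at -0.095 to 0.087, Tsc22d3 -0.055 to 0.034, Hsd11b1 -0.029 to 0.11, Dusp1 -0.070 to 0.020 and Abcb1a -0.038 to 0.45. For 750 ppm minus control these ranges were Sgk1 -0.081 to 0.11, Fkbp5 1388901_at -0.056 to 0.13, Tsc22d3 -0.029 to 0.075, Hsd11b1 -0.15 to 0.10, Dusp1 -0.0059 to 0.071 and Crh -0.23 to 0.25. For 2500 ppm minus 750 ppm these ranges were Nr3c2 -0.22 to 0.023, Fkbp5 1388901_at -0.14 to 0.026, Tsc22d3 -0.087 to 0.023 and Hsd11b1 -0.058 to 0.15. Signal limits the dimmer probe sets of Nr3c1 and Dusp1, which lay below the filter.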
